A study of Mus musculus with 12 samples.

Results

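Oxygen-induced retinopathy (OIR) was compared with room air (NORM) in retina depleted of rods, the photoreceptors that otherwise dominate a mouse retinal cell suspension. The members are 5 of the 12 libraries of the series, chosen by their labels: 3 OIR libraries (P14 replicate 1, P14 replicate 2 and P17) and 2 NORM libraries (P14 and P17). They held 10329 of the 25472 cells mapped to a library. All mice were C57B6 and the labels name no genetic change. OIR pups breathed 75% oxygen from postnatal day 7 to 12, returned to room air, and were raised by a foster mother. NORM pups stayed in room air with their own mother, so fostering and oxygen cannot be told apart. Single-cell RNA was measured by Drop-seq, which counts unique molecular identifiers (UMIs) at the 3′ end of transcripts. The labels leave unsaid whether libraries of a group had different donor animals. The p-values then reflect only library-to-library spread, which may be technical.

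In this model, hyperoxia stops vessel growth and prunes capillaries of the immature retina. Back in room air, the avascular tissue is short of oxygen, hypoxia-inducible factors are stabilised in neurons and glia, and vascular endothelial growth factor drives disorganised regrowth of vessels. Müller glia span the retina and are a main source of that growth factor, while astrocytes, pericytes and microglia line or patrol the vessels.

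The libraries held 1821 to 2518 cells each, with a median of 925 to 1016 UMIs per cell, and 1 of 10328 distinct cell barcodes occurred in more than 1 of them. Genes of the rod phototransduction list made up 0.0987% to 0.781% of UMIs, against 2.07% to 5.47% in the 7 whole-retina libraries. One library stood apart. OIR P14 replicate 1 had 0 UMIs of Xist, the RNA that silences an X chromosome in female cells, and 798 UMIs of 4 Y-linked genes (Ddx3y, Eif2s3y, Kdm5d and Uty). The other libraries had 5185 to 7576 Xist UMIs and 1 to 4 UMIs of those Y-linked genes. The labels give no sex. Results are therefore also given without OIR P14 replicate 1 where that changes them. In the submitters' library names, a date-like code is shared by NORM P14 and OIR P14 replicate 2 alone, and the codes of the other libraries all differ. The name given to the OIR P17 library carries no mark for OIR, and its group was taken from the sample title.

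Cells were clustered together with the whole-retina cells and each cluster was named from marker genes, so a class below means cells like that type. Rod bipolar-like cells made up 36.4% and 33.5% of cells in NORM P14 and NORM P17, and 43.1%, 45.6% and 39.9% in OIR P14 replicate 1, OIR P14 replicate 2 and OIR P17. Cone bipolar-like cells made up 12.7% and 20.8% in NORM, and 9.58%, 10.6% and 7.27% in OIR. Pericyte-like cells made up 1.74% and 1.97% in NORM, and 3.16%, 2.54% and 5.93% in OIR. For these 3 classes every OIR library lay on 1 side of both NORM libraries. In the other classes the groups overlapped, among them Müller glia (25.3% and 13.4% in NORM, 20.9%, 19.7% and 14.5% in OIR), endothelial-like cells (3.43% and 2.25%, then 1.19%, 1.05% and 2.84%) and microglia or macrophage-like cells (2.34% and 1.89%, then 2.02%, 3.93% and 5.67%). With 3 against 2 libraries there are 10 arrangements, and a two-sided exact permutation test cannot go below 0.2. The 3 classes without overlap each gave p = 0.2 in that exact permutation test, the smallest it can give (0.933 after Benjamini-Hochberg adjustment over 14 classes). How cells were dissociated and rods removed can also set these shares and was not tested.

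**Figure D1:**
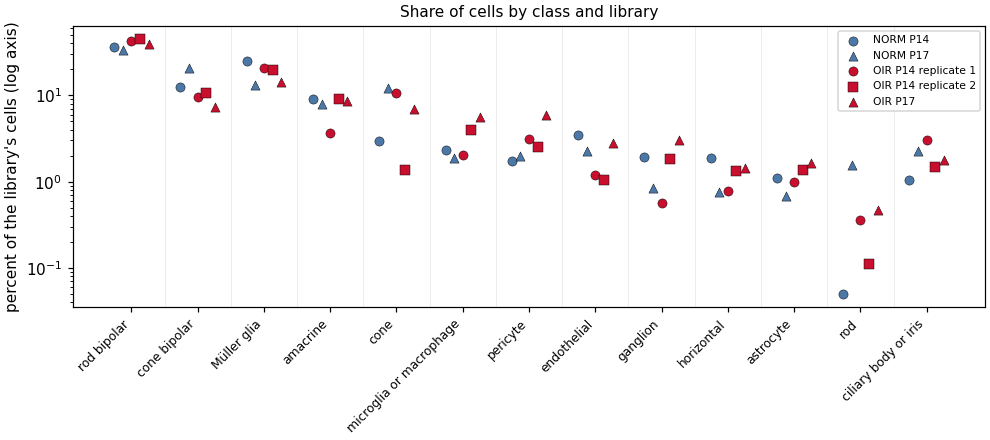
Share of each library's cells (percent, log axis) in each marker-named class. Blue points are NORM and red points OIR libraries, with circles and squares for P14 and triangles for P17. Rod bipolar, cone bipolar and pericyte-like cells have all 3 OIR points on 1 side of both NORM points.

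Levels below are the mean over the cells of a class, in UMIs per 10000 UMIs of the cell. Where 5 values follow each other, they are in the order NORM P14, NORM P17, OIR P14 replicate 1, OIR P14 replicate 2, OIR P17. A difference is OIR minus NORM on the log2(level + 0.2) scale, adjusted for age in limma and given ± its standard error. A gene is said to rise or fall only at a Benjamini-Hochberg adjusted p below 0.05 over all genes tested in that class, and a gene is called separate where every OIR library lies on the same side of both NORM libraries. The scale understates changes of genes with low levels. To be tested, a gene needed a mean of at least 0.2 over the libraries. Some called genes had NORM levels that average below 0.2. OIR levels alone let these be tested, and their calls carry less weight. Among them are Hk2 in both bipolar classes, rod bipolar Matk, Selenbp1 and H2-Ab1, Müller Apln and Loxl2, and astrocyte Serpina3n. Endothelial Top2a and Col15a1, pericyte Ccl2 and Cdk1, and Fabp5 in microglia or macrophage-like cells are others. In a mean over cells, fewer cells with an RNA and less of it per cell cannot be told apart.

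In Müller glia-like cells, 13 of 7060 genes rose (0.184%) and 0 fell with limma, while 622 had an unadjusted p below 0.05. Ndufa4l2 (build GRCm38, chr10:127514967-127517154, plus strand), a mitochondrial protein induced by hypoxia, stood at 1.04 and 0.624 in NORM and 6.7, 12.2 and 18.2 in OIR. All 3 OIR libraries lay above both NORM libraries. The difference was 3.58 ± 0.34 (limma, adjusted p = 7.91e-05), and the gene was called in each of the 5 fits that left out 1 library. A Ndufa4l2 UMI was seen in 42 of 509 and 14 of 333 cells in NORM, and 139 of 404, 164 of 357 and 163 of 281 in OIR, and after thinning every cell to 500 UMIs in 19 of 417 and 7 of 268 cells in NORM, and 73 of 352, 105 of 322 and 92 of 208 in OIR. In rod bipolar-like cells, which serve as background, 1 to 22 of 733 to 835 cells had one. Pericyte-like cells also carried Ndufa4l2, at 22.1 and 22.5 in NORM and 13.9, 11.4 and 17.9 in OIR, without passing. The 10 pericyte markers summed to 2.36 and 2.78 in NORM and 2.71, 2.71 and 5.9 in OIR in Müller glia. Their part in the result was not tested. Median depth was 884 to 1118 UMIs in Müller glia and 938 to 1204 in rod bipolar-like cells.

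Secreted factors that act on vessels were among the rises. Adrenomedullin (Adm), a vasodilator peptide, read 0.402 and 0 in NORM and 1.26, 3.48 and 3.72 in OIR, a difference of 2.95 ± 0.45. Apelin (Apln), ligand of an endothelial receptor, read 0.194 and 0.11 against 2.4, 1.65 and 0.879, a difference of 2.19 ± 0.30. Vegfa (chr17:46016993-46032369, minus strand) read 7.63 and 6.48 against 15.9, 14.6 and 25.8, a difference of 1.40 ± 0.27. For each of these genes the lowest OIR library exceeded the highest NORM library. The Vegfa call was close to the threshold (limma, adjusted p = 0.045) and was lost without OIR P14 replicate 2, NORM P17 or OIR P17, with an adjusted p of up to 0.516.

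The other genes that rose were the secreted neurexophilin Nxph4 (2.56), the stress regulator Nupr1 (2.31), the growth factor binding protein Igfbp5 (2.29), the steroid dehydrogenase Hsd17b2 (1.81), the collagen cross-linking enzyme Loxl2 (1.75), the membrane binder Anxa2 (1.67), the iron carrier transferrin (Trf, 1.62), the G protein subunit Gnb2 (1.48) and the G protein regulator Rgs2 (1.38). All were separate. Ndufa4l2, Nxph4, Nupr1, Igfbp5 and Apln were called in all 5 fits without 1 library, and the other 8 genes were each lost in at least 1. The count of calls ran from 6 without OIR P14 replicate 2 to 115 without NORM P14. It was 28 without OIR P14 replicate 1 (23 higher, 5 lower), 24 without NORM P17 and 22 without OIR P17.

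Of 26 genes on the hypoxia list, 22 were tested in Müller glia and 4 rose (Ndufa4l2, Adm, Anxa2 and Vegfa). All OIR libraries lay above NORM for 12 of the 22, against 11.0% of all genes, and the median difference was 0.53, against -0.03 over all genes tested. None of 9 tested genes of the reactive gliosis list passed, and 8 were above 0. Gfap, the intermediate filament that marks gliosis, read 0.0581 and 0.193 in NORM and 0.291, 1.66 and 0.901 in OIR. Every OIR library was above NORM, the difference was 1.72 ± 0.43 (limma, adjusted p = 0.137), and Gfap passed without OIR P14 replicate 1 (0.0165).

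Genes of normal Müller work did not pass in either direction. Of 20 homeostasis genes, 13 were below 0 and 5 had all OIR libraries below NORM, against 12.9% of all genes, with a median difference of -0.30. Glutamine synthetase (Glul), which clears glutamate, read 94.6 and 165 in NORM and 74.4, 57.3 and 110 in OIR. The retinaldehyde carrier Rlbp1 read 58.2 and 72.7 against 53.3, 47.1 and 67.4, and the water channel Aqp4 6.46 and 17.7 against 8.81, 4.8 and 7.5. In all 3 the groups overlapped.

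RNA of other cells and stress genes moved with some libraries of this class. The 20 bipolar genes summed to 21.7 and 25.8 in NORM and 15.9, 15.5 and 14.8 in OIR, lower in every OIR library. Of the 20, 8 were separate and lower, against 12.9% of all genes. The 7 rod markers summed to 0.858, 4.14, 1.8, 0.678 and 0.853, highest in NORM P17, and the 5 red blood cell markers to 10.8, 1.69, 0.912, 10.4 and 31.8. No marker of these lists was at 0 throughout. A cluster led by Cyr61, Zfp36l1, Maff and Atf3, which dissociation can induce, held 63.9% of Müller cells in NORM P14 and 9.61% in NORM P17, and 73.3%, 76.2% and 49.8% in OIR. The remaining Müller cells were in a cluster led by Spc25, Rlbp1 and Glul. The part of these differences in the result was not tested.

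**Figure D2:**
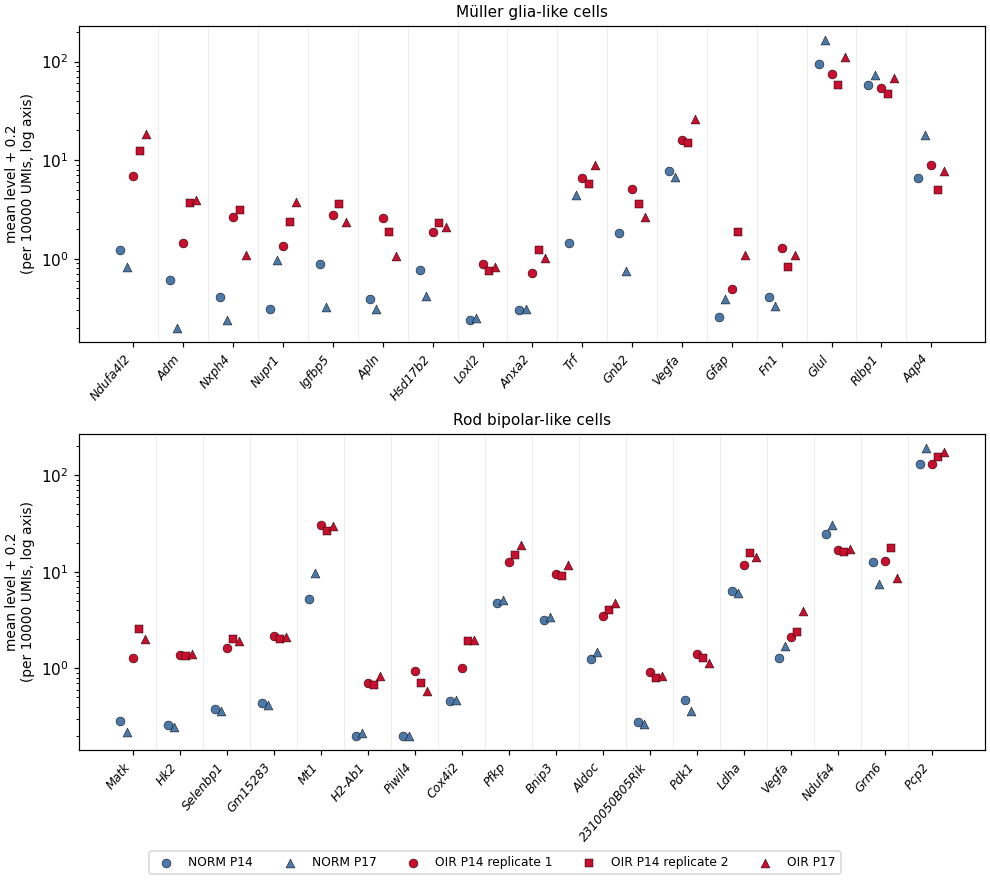
Mean level + 0.2 per 10000 UMIs (log axis) of named genes in Müller glia-like cells (top) and rod bipolar-like cells (bottom), 1 point per library. Ndufa4l2, Vegfa, Hk2 and Bnip3 have all red OIR points above both blue NORM points, while Glul, Rlbp1, Grm6 and Pcp2 overlap.

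Rod bipolar-like cells, neurons that relay rod signals, had 42 rises (0.627% of 6697 genes) and 1 fall (0.0149%), from 733 to 835 cells per library. Genes of glycolysis and hypoxia were prominent. Hexokinase 2 (Hk2, chr6:82725025-82774454, minus strand), which traps glucose in the cell, read 0.0576 and 0.0466 in NORM and 1.17, 1.16 and 1.21 in OIR. Every OIR library was far above both NORM libraries, and the difference was 2.45 ± 0.19 (limma, adjusted p = 0.000377). A Hk2 UMI was seen in 3 of 733 and 4 of 835 cells in NORM, and 80 of 833, 87 of 825 and 73 of 773 in OIR, and after thinning in 3 of 656 and 1 of 782 cells in NORM, and 41 of 756, 40 of 731 and 31 of 674 in OIR. In Müller glia of the same libraries, Hk2 was seen in 18 of 509 and 3 of 333 cells in NORM, and 17 of 404, 21 of 357 and 8 of 281 in OIR, and the groups overlapped.

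Bnip3, a mitophagy receptor, read 3.0 and 3.2 against 9.33, 8.89 and 11.5 (1.65 ± 0.16). 3 enzymes of later steps of glycolysis rose as well. Phosphofructokinase Pfkp read 4.56 and 4.9 in NORM and 12.3, 14.7 and 18.7 in OIR (1.68 ± 0.17), and aldolase C (Aldoc) 1.04 and 1.27 against 3.32, 3.79 and 4.59 (1.64 ± 0.17). Lactate dehydrogenase A (Ldha) read 6.17 and 5.89 against 11.7, 15.5 and 14.1 (1.16 ± 0.18). Each was higher in all 3 OIR libraries. Pdk1, the kinase that keeps pyruvate out of the mitochondrion, read 0.27 and 0.159 against 1.21, 1.07 and 0.933 (1.57 ± 0.19). Vegfa read 1.08 and 1.5 against 1.93, 2.17 and 3.68 (0.97 ± 0.18, limma, adjusted p = 0.0459), a lower level and a smaller difference than in Müller glia, though the 2 differences were not tested against each other. The call was kept in 1 of the 5 fits without 1 library.

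By list, 6 of 18 tested hypoxia genes rose (Hk2, Bnip3, Pdk1, Vegfa, Higd1a and Kdm3a). All 18 were above 0 and 16 had every OIR library above NORM, against 15.1% of all genes, with a median of 0.85, against 0.00 over all genes. Of 20 glycolysis genes, 4 rose (Hk2, Pfkp, Aldoc and Ldha) and 13 were separate and higher, with a median of 0.50. None of 30 respiratory chain subunits passed, yet 29 were below 0 and 19 had every OIR library below NORM, against 14.9% of all genes, with a median of -0.29. Cytosolic ribosomal proteins lay lower too: of 40 tested, 0 passed with limma and 37 were below 0, with a median of -0.27. Of the 40, 10 had an unadjusted p below 0.05, against 14.3% of all genes. The 7 that were separate and lower are near the share of all genes (14.9%). Ndufa4, a cytochrome oxidase subunit, read 24.7 and 30.6 in NORM and 16.7, 15.9 and 17.1 in OIR (-0.70 ± 0.16, limma, adjusted p = 0.104, and 0.0137 without OIR P14 replicate 1).

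Genes outside these pathways rose too. The metal-binding metallothioneins Mt1 (5.07, 9.52, 30.5, 26.5 and 29.8) and Mt2 (2.43, 2.99, 10.8, 9.78 and 6.36) differed by 2.09 ± 0.20 and 1.58 ± 0.22. The tyrosine kinase Matk (0.0812, 0.0187, 1.09, 2.36 and 1.82) had the largest difference of the class (2.91 ± 0.29). Selenbp1 (2.31), Gm15283 (2.30), the cytochrome oxidase isoform Cox4i2 (1.79) and 2310050B05Rik (1.64) rose in all 3 OIR libraries. H2-Ab1, an MHC class II chain, had 2 UMIs in NORM and 141 in OIR, a ratio of 55 (95% exact interval 14.9 to 459, counting error only). Piwil4 had 0 UMIs in NORM and 131 in OIR, at least 34.1-fold higher if NORM is set to a floor of 3 UMIs in all. It passed the filter through the OIR libraries alone, so its call carries no weight. Faim2, an inhibitor of Fas-driven death, fell (1.57, 2.61, 0.748, 0.723 and 1.27, a difference of -0.93 ± 0.18, limma, adjusted p = 0.0497). The identity genes Grm6, a glutamate receptor (12.4 and 7.25 against 12.9, 17.4 and 8.53), and Pcp2 (131 and 192 against 132, 156 and 173) overlapped between groups. Of 18 tested bipolar genes, 1 was separate and higher and 3 separate and lower, against 15.1% and 14.9% of all genes.

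The number of rod bipolar calls leaned on single libraries. It was 0 without NORM P14, 1 without NORM P17, 5 without OIR P17, 49 without OIR P14 replicate 2 and 173 without OIR P14 replicate 1 (138 higher, 35 lower). The Hk2 difference stayed between 2.4 and 2.51 in those 5 fits, though its call was lost without either NORM library (limma, adjusted p of up to 0.0783).

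Cone bipolar-like cells, which relay cone signals, had 3 rises (0.0380% of 7891 genes), and all 3 genes also rose in rod bipolar-like cells. Hk2 read 0.123 and 0.0882 in NORM and 2.61, 2.33 and 1.56 in OIR (2.86 ± 0.39, limma, adjusted p = 4.12e-05). Bnip3 read 1.65 and 2.1 against 7.06, 6.54 and 7.19 (1.82 ± 0.28) and Mt1 1.74 and 3.16 against 4.87, 4.62 and 9.16 (1.41 ± 0.28). In each, every OIR library was above NORM. Hypoxia genes were above 0 in 19 of 20 cases, with a median of 0.58, and respiratory chain subunits had a median of -0.30. Pfkp (13.1, 11.6, 20.5, 26.8 and 17.7) and Ldha (7.54, 7.63, 13.6, 11.8 and 12.8) were separate but did not pass. Without NORM P14, 0 genes were called, and the count was 10 without OIR P14 replicate 1 and 7 without OIR P14 replicate 2.

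In amacrine-like cells, inhibitory interneurons, Mt2 was the only gene called (0.0122% of 8170), at 0.105 and 0.36 in NORM and 1.81, 1.7 and 2.55 in OIR (2.52 ± 0.50, limma, adjusted p = 0.00522). The next genes by p were Podxl2, Xist, Pianp and Pde6h, and none passed. Xist was at 0 in OIR P14 replicate 1 and higher in the other OIR libraries than in NORM. Hk2 (0.0394, 0.068, 0.36, 0.752 and 0.171) and Bnip3 (2.41, 2.58, 3.63, 2.04 and 5.45) did not pass, and Bnip3 overlapped. The transmitter enzyme Gad1 read 6.13 and 5.38 against 3.23, 4.0 and 3.53, without passing. The hypoxia list had a median of 0.40. Calls numbered 9 without OIR P14 replicate 2, 4 without either P17 library and 2 without NORM P14.

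Horizontal-like cells numbered 15 to 38 per library and were tested at a minimum of 15 cells, chosen after cell counts were seen. D4Wsu53e, Ccnl2 and Pcsk1n rose (0.0444% of 6755 genes). D4Wsu53e read 8.86 and 6.44 in NORM and 17.4, 20.4 and 28.6 in OIR, and the cyclin Ccnl2 1.68 and 0.544 against 4.01, 4.94 and 9.06. The proprotein Pcsk1n (11.1, 0.113, 24.5, 26.2 and 4.76) overlapped between groups, with NORM P17 lowest, and was lost without NORM P17 or OIR P17. The other 2 genes were separate and were lost without OIR P14 replicate 2, NORM P17 or OIR P17. Calls numbered 5 without NORM P14 and 1 without either P17 library. In ganglion-like cells, OIR P14 replicate 1 had 11 cells and was not in the fit. None of 7446 genes passed with limma, and 392 had an unadjusted p below 0.05. The smallest adjusted p, 0.0567, belonged to the haemoglobin gene Hbb-bs.

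The promoter windows of the called glycolysis and hypoxia genes in the bipolar classes and Müller glia are shown because these genes carry the calls of both lists. Of 12 genes called on those lists in the 3 classes, 11 matched a RefSeq promoter (build GRCm38.p6, 250 bases before to 50 after the annotated start). The core of the hypoxia response element, ACGTG, was searched on both strands, and 6 of the 11 windows held it, against 19.6% of 32851 windows. With GCGTG added, 10 of 11 held a match, against 43.8%. The genes come from lists of known hypoxia targets and glycolysis enzymes, and uncalled members of those lists were not searched. These shares therefore give no evidence on the calls. The 4 windows shown, chosen after the values were seen, are printed 5′ to 3′ along the gene, with matches to either core in capitals (CACGT and CACGC are matches on the opposite strand). Hk2 and Bnip3 were called in both bipolar classes, Ldha holds the most ACGTG matches, and Vegfa, called in Müller glia and rod bipolar-like cells, holds none.
Hk2 (chr6:82774405-82774704, minus strand): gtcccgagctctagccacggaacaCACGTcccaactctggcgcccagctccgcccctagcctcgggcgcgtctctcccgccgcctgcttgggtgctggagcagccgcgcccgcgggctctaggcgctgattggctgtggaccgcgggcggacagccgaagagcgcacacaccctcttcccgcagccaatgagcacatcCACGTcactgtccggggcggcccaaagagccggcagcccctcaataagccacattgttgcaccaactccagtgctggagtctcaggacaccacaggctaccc
Bnip3 (chr7:138909457-138909756, minus strand): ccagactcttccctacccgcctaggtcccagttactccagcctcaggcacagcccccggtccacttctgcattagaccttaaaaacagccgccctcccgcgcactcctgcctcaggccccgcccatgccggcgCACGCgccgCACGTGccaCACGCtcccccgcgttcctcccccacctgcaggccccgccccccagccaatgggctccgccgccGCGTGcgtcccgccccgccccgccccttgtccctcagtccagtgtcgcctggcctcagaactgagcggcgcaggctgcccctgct
Ldha (chr7:46845554-46845853, plus strand): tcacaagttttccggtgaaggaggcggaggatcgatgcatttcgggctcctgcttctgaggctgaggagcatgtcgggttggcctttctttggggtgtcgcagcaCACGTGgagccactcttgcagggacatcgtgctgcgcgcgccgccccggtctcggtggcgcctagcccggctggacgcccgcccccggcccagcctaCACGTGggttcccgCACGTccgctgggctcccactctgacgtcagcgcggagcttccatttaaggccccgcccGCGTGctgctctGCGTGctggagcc
Vegfa (chr17:46032328-46032627, minus strand): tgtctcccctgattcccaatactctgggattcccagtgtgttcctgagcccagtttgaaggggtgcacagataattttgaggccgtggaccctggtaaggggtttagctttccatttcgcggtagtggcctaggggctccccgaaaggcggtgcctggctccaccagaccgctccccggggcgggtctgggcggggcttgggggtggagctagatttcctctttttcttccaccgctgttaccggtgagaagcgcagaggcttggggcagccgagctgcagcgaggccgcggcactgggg
The Hk2 window has 2 ACGTG matches, the Bnip3 window has 2 and the Ldha window 5. In Bnip3 and Ldha, the word CACGTG gives overlapping matches on both strands, and each is counted. A match is a string of letters and not a measured binding site.

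In endothelial-like cells, the lining of vessels, 19 genes rose and 19 fell (0.273% and 0.273% of 6957). OIR P14 replicate 2 had 19 such cells and was not in the fit, so 2 OIR libraries (23 and 55 cells) stood against 2 NORM libraries (69 and 56 cells). Its values are still printed as the fourth of 5. Apln, a ligand that sprouting tip cells make, read 1.89 and 0.361 in NORM and 4.4, 1.21 and 12.4 in OIR (2.82 ± 0.48, limma, adjusted p = 1.03e-05). Esm1, a secreted proteoglycan of tip cells, read 0.0949 and 0.366 against 0.613, 0.199 and 5.91 (2.45 ± 0.60). OIR P17 was the highest library for both, and the library outside the fit lay within the NORM range. With all 5 libraries, at a minimum of 15 cells chosen after cell counts were seen, 0 of the 19 rises kept a call. An Esm1 UMI was seen in 1 of 69 and 2 of 56 cells in NORM, and 3 of 23, 2 of 19 and 22 of 55 in OIR, and after thinning in 0 of 68 and 1 of 49 cells in NORM, and 1 of 23, 0 of 18 and 7 of 47 in OIR, against 0 to 4 rod bipolar-like cells per library. Median depth was 1514 to 3033 UMIs in endothelial-like cells.

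In some other rises the level was higher in all 3 OIR libraries, the fourth value included. The growth factor binding protein Igfbp3 read 0.83 and 0.52 against 6.03, 1.94 and 5.54 (2.80 ± 0.50), and the basement membrane collagen Col15a1 0.0249 and 0 against 0.811, 0.526 and 1.59, a ratio of 36.6 (95% exact interval 6.04 to 1495, counting error only). Prkcdbp, a caveola protein, read 0.709 and 0.0699 against 3.05, 2.0 and 3.56 (2.82 ± 0.56). Top2a, which untangles DNA in dividing cells, read 0.345 and 0 against 2.21, 5.31 and 1.05 (2.39 ± 0.64) and was the only one called of 11 tested cell cycle genes. NORM levels of Top2a and Col15a1 average below 0.2, so both calls carry less weight. Mki67 read 0.172 and 0 against 1.4, 3.92 and 0.573 and did not pass. Tgfbi, Prss23, 2810417H13Rik, Apold1, S100a6 and Dnajc2 completed the 12 largest rises.

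The falls included genes of mature, barrier-forming vessels. Ly6c1, a surface antigen of mature endothelium and a marker of the class, read 17 and 70.6 in NORM and 6.63, 3.91 and 2.77 in OIR (-2.95 ± 0.39, limma, adjusted p = 3.93e-10). Ly6a, a related antigen, read 5.22 and 23.3 against 1.76, 2.46 and 0.779 (-3.02 ± 0.46). Mfsd2a, a lipid transporter that suppresses transcytosis at the barrier, read 7.88 and 10.1 against 2.12, 5.17 and 2.42 (-1.89 ± 0.45). In all 3 genes each OIR library, the fourth included, lay below both NORM libraries.

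Several transporters fell with them. The organic anion carriers Slco1a4 (7.67, 24.4, 3.79, 0.566 and 3.2) and Slc22a8 (2.08, 3.28, 0.358, 0.585 and 0.216) differed by -1.92 ± 0.42 and -2.55 ± 0.58. The lactate carrier Slc16a1 (-1.89), its chaperone basigin (Bsg, -1.25), the chemokine Cxcl12 (-2.03), the acyl-CoA synthetase Acsl3 (-2.58) and the heat shock gene Hspa1a (-2.18) fell as well. Plasmolipin (Pllp) read 0.693, 2.13, 0, 0.20 and 0.0268 and was 30.6-fold lower (95% exact interval 5.19 to 1240, counting error only), from 1 UMI in the fitted OIR libraries. Acsl3 read 1.65, 1.07, 0, 2.14 and 0.13, with the fourth library above NORM. Of 14 barrier and transport genes, 3 fell (Mfsd2a, Bsg and Slco1a4), 0 rose, 12 were below 0 and 6 were separate and lower in the fitted libraries, against 18.6% of all genes, with a median of -0.81.

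Some core endothelial genes overlapped, such as the junction protein Cldn5 (64.1, 24.5, 44.1, 40.1 and 25.2) and the growth factor receptor Kdr (8.98, 8.16, 8.86, 10.7 and 9.06). Others did not, since the class markers Ly6c1 and Pltp were among the falls. Of 22 angiogenesis ligands and receptors, 2 rose (Apln and Esm1) and 1 fell (Cxcl12). On this list 4 were separate and higher, against 16.7% of all genes, and 4 separate and lower, against 18.6%. Angpt2, which loosens vessels for sprouting, read 0.66 and 0.485 against 1.26, 0.769 and 5.88 and missed the threshold (limma, adjusted p = 0.0572). Of 20 hypoxia genes 0 passed with limma and 8 were above 0, with a median of -0.13.

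RNA of other cells differed here as well. Mgp (7.48, 17.4, 0.107, 0 and 4.91) fell by 3.21 on the log2 scale, and it is 1 of the 10 pericyte markers, which summed to 28.4, 18.7, 0.436, 0.865 and 22.1 in endothelial-like cells, with none at 0 throughout. The 20 bipolar genes summed to 27, 18.2, 9.94, 5.07 and 13, and Gng13 of that list was among the falls. The 5 red blood cell markers summed to 6.13, 1.12, 0.188, 3.78 and 106. Their part in the result was not tested. Xist, at 0 UMIs in OIR P14 replicate 1, was also among the 19 falls. With all 5 libraries, at that minimum of 15 cells, 7 genes fell (Ly6c1, Ly6a, Mgp, Bsg, Cxcl12, Slco1a4 and Pltp) and 0 rose.

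Leaving single libraries out of that fit, an alternative also added after the data were seen, changed the calls further. Without OIR P14 replicate 1, 6 genes rose and 10 fell, and 12 of these 16 were among the 38 calls above. Top2a (2.99), Ly6c1 (-3.32), Ly6a (-2.81), Slco1a4 (-3.11), Cxcl12 (-3.02) and Bsg (-1.67) were called there, and Apln (1.96), Esm1 (1.93), Igfbp3 (2.03) and Mfsd2a (-1.28) were not. Without NORM P14, 10 genes rose and 11 fell, Apln among the rises (4.49). Without either P17 library the fit rests on P14 alone, with 2 genes lower and 0 higher, and the Apln difference was 0.29.

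**Figure D3:**
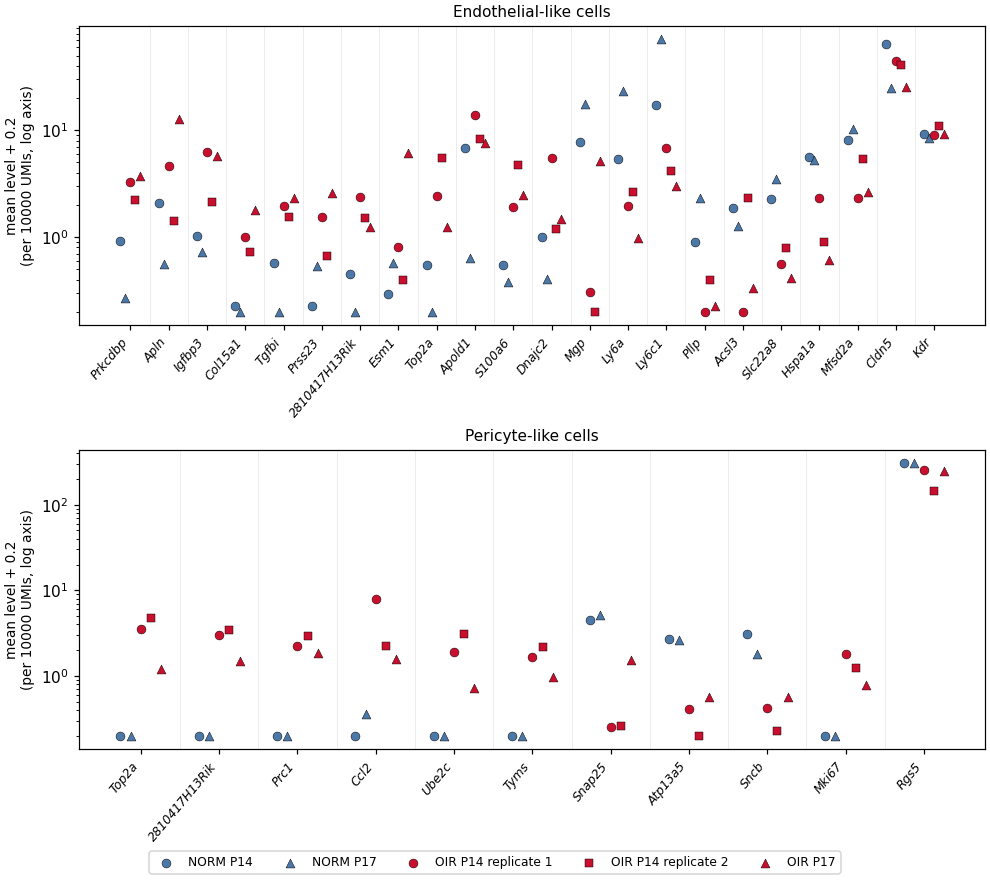
Mean level + 0.2 per 10000 UMIs (log axis) of named genes in endothelial-like cells (top) and pericyte-like cells (bottom), 1 point per library; the squares, OIR P14 replicate 2, were not in the endothelial fit. Top2a and Mki67 of pericyte-like cells sit at the floor of 0.2 in both NORM libraries, and Ly6c1 and Ly6a of endothelial-like cells are lower in every OIR library.

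Pericyte-like cells, which wrap capillaries, had the most calls, with 54 rises (0.786% of 6869 genes) and 31 falls (0.451%). Cell cycle genes were among the rises. Top2a had 0 UMIs in both NORM libraries and 99, 63 and 44 in OIR, at levels of 3.3, 4.55 and 0.99. With NORM set to that floor of 3 UMIs it was at least 11.7-fold higher. Mki67, a marker of dividing cells, had 0 UMIs in NORM and 53, 25 and 29 in OIR, at least 6.05-fold higher. Prc1, which organises the spindle, was at least 8.48-fold higher.

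The 18 listed cell cycle genes together summed to 2.14 and 4.07 in NORM and 24.1, 30.8 and 9.33 in OIR, higher in every OIR library, with OIR P17 the lowest of the 3. Of 17 tested, 7 were called (Top2a, Ube2c, Tyms, Birc5, Cdk1, Mki67 and Ccnb2). All of these but Cdk1 had 0 UMIs in NORM and passed the filter through the OIR libraries alone, so their calls carry no weight, and the same holds for 13 of the 54 rises of the class. Cdk1, a kinase that drives mitosis, read 0 and 0.325 in NORM and 2.37, 2.87 and 0.723 in OIR and was separate. Its NORM levels average below the floor of 0.2, so it too was tested only because of its OIR levels. Without OIR P14 replicate 1, 0 genes of the list were called, though those at 0 in NORM were then not tested. At least 3 cell cycle UMIs were found in 0 of 35 and 1 of 49 cells in NORM, and 22 of 61, 26 of 46 and 26 of 115 in OIR. NORM pericyte-like cells were shallower, with a median of 874 and 1176 UMIs against 2399, 2928 and 2326. After thinning to 500 UMIs, which left out 9, 5, 1, 1 and 4 shallower cells, the counts were 0 of 26 and 0 of 44 cells in NORM, and 12 of 60, 12 of 45 and 6 of 111 in OIR. In rod bipolar-like cells, thinned alike, 0 cells of any library reached 3, against 1 to 5 per library before thinning.

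Other genes rose beside them. The chemokine Ccl2 read 0 and 0.156 in NORM and 7.67, 2.06 and 1.39 in OIR, from 2 and 177 UMIs, a ratio of 15 (95% exact interval 4.09 to 125, counting error only). The fatty acid carrier Fabp5 read 1.97 and 4.32 against 10.9, 11.2 and 16.8 (2.18 ± 0.31). Both were higher in every OIR library. The calcium binder S100a6 read 4.57 and 2.15 against 13, 26.3 and 10.6 (2.07 ± 0.32) and fibronectin (Fn1) 1.05 and 0.221 against 2.96, 4.62 and 2.65 (2.12 ± 0.45). The chemokine Cxcl1 (2.26), galectin 1 (Lgals1, 2.04), Loxl2 (2.02), the filament protein Vim (1.32) and Anxa2 (1.34) rose too, with every OIR library above NORM in each. Of 22 tested genes of the mural contractile and matrix list, 1 rose, 1 fell, 4 were separate and higher, against 17.4% of all genes, and 6 separate and lower, against 14.5%. That list summed to 651 and 722 in NORM and 586, 542 and 588 in OIR, lower in every OIR library, while its median difference was 0.36.

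The falls included membrane proteins of pericytes. The ATPase Atp13a5 read 2.53 and 2.4 in NORM and 0.214, 0 and 0.369 in OIR (-2.79 ± 0.57, limma, adjusted p = 0.00795) and the potassium channel Kcnj8 16.3 and 32.2 against 10.1, 7.4 and 12 (-1.12 ± 0.28). Each OIR library lay below NORM in both genes. Vitronectin (Vtn, -1.48) and Cox4i2 (-1.40) fell, the last a gene that rose in rod bipolar-like cells. The defining genes Rgs5 (303, 303, 252, 146 and 246) and Pdgfrb (6.27, 10.5, 5.79, 5.13 and 7.03) did not pass, though Rgs5 was lower in every OIR library. The 10 pericyte markers summed to 537 and 612 in NORM and 467, 365 and 453 in OIR, lower in every OIR library. Of the 10, 6 were separate and lower, against 14.5% of all genes. Of 21 hypoxia genes, 2 rose, Anxa2 among them, and 14 were above 0, with a median of 0.43.

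RNA of neurons and Müller glia moved with these groups. Snap25, a synaptic protein (4.35, 5.01, 0.0548, 0.0594 and 1.31), fell, as did Sncb, Pcp2 and Glul. The 20 bipolar genes summed to 27.5 and 29.2 in NORM and 3.63, 11.9 and 17 in OIR. Of these, 8 were separate and lower, against 14.5% of all genes, and Lrit3 and Vsx1 were at 0. The 12 Müller markers summed to 25.2, 15.5, 8.54, 13.4 and 16.5, with none at 0. Of 41 ribosomal protein genes, 35 were above 0, with a median of 0.45. Their part in the result was not tested. The count of calls was 52 without OIR P14 replicate 1 (29 higher, 23 lower) and 444 without OIR P17. The fit of group means gave 0. No whole-retina library had 20 pericyte-like cells, so that fit held the same 5 libraries. It had only 1 residual degree of freedom and is no check over 12 libraries. A gene at 0 in both NORM libraries, such as Top2a and Mki67, could not be tested without any 1 of the OIR libraries, since it was then above 0 in too few.

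Microglia or macrophage-like cells had 7 rises (0.106% of 6595 genes) and 1 fall (0.0152%). Haem oxygenase 1 (Hmox1), which breaks down haem, read 1.33 and 1.25 in NORM and 7.74, 29.8 and 16 in OIR (3.40 ± 0.41, limma, adjusted p = 9.78e-11), and it was called in all 5 fits without 1 library. An Hmox1 UMI was seen in 5 of 47 and 4 of 47 cells in NORM, and 4 of 39, 26 of 71 and 25 of 110 in OIR. These shares overlapped between groups. After thinning they were 2 of 41 and 0 of 37 cells in NORM, and 2 of 33, 18 of 64 and 15 of 85 in OIR. Osteopontin (Spp1), a secreted matrix protein, read 0.128 and 0.593 against 16, 54.8 and 1.33 (4.12 ± 0.51). From few NORM UMIs the ratio was 74.5 (95% exact interval 25.4 to 362, counting error only). Both OIR P14 libraries were high, OIR P17 was closer to NORM, and the call was lost without NORM P14. An Spp1 UMI was seen in 1 of 47 and 1 of 47 cells in NORM, and 5 of 39, 17 of 71 and 8 of 110 in OIR, and after thinning in 0 of 41 and 1 of 37 cells in NORM, and 4 of 33, 12 of 64 and 3 of 85 in OIR, against 0 to 12 of 733 to 835 rod bipolar-like cells. Median depth in the class was 839 to 1285 UMIs.

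The matrix protease Mmp12 had 0 UMIs in NORM and 116, 29 and 56 in OIR, at least 25.3-fold higher. It passed the filter through the OIR libraries alone, so its call carries no weight. Galectin 3 (Lgals3) read 0.664 and 0.995 against 6.47, 15.7 and 2.82 (2.62 ± 0.48) and the iron store Fth1 65.1 and 42.5 against 116, 173 and 156 (1.44 ± 0.24). Fabp5 read 0 and 0.118 against 1.98, 4.0 and 2.17, a ratio of 33.2 (95% exact interval 5.81 to 1327, counting error only). Its NORM levels average below 0.2, so the call carries less weight. The cytokine Mif read 1.52 and 3.86 against 9.52, 12.7 and 5.42 (1.74 ± 0.42). The fall was Serinc3, at 23.1 and 34.1 against 7.89, 9.78 and 11.3 (-1.46 ± 0.33). Every OIR library was on 1 side of NORM in all 8 genes.

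Of 17 tested genes of the activated microglia list, 6 rose (Mmp12 among them) and 10 were separate and higher, against 11.9% of all genes, with a median of 1.31, against 0.01 over all genes. The 18 listed genes summed to 654, 211, 545, 619 and 584, lowest in NORM P17, and this sum overlapped between groups. None of 10 resting genes passed, yet 10 were below 0 and 7 were separate and lower, against 10.9% of all genes, with a median of -0.60. P2ry12, a receptor of resting microglia, read 13.9 and 20.8 against 14.5, 7.92 and 13.8, and the chemokine receptor Cx3cr1 18.6 and 16.5 against 16.4, 10.5 and 15.2. Hypoxia genes had a median of 1.22, with 17 of 19 above 0. The class joins a cluster led by Ctss, C1qb and C1qa and another with Cd74, Pf4, Lyz2, Hmox1, Spp1 and Lgals3 among its leading genes. The latter held 36.2% and 48.9% of the class in NORM and 51.3%, 45.1% and 57.3% in OIR. The 12 Müller markers summed to 461, 125, 297, 251 and 319 in this class, highest in NORM P14, with none at 0, and their part in the result was not tested. Without OIR P14 replicate 1, 18 genes were called. The count was 4 without NORM P14 and 5 without OIR P14 replicate 2.

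**Figure D4:**
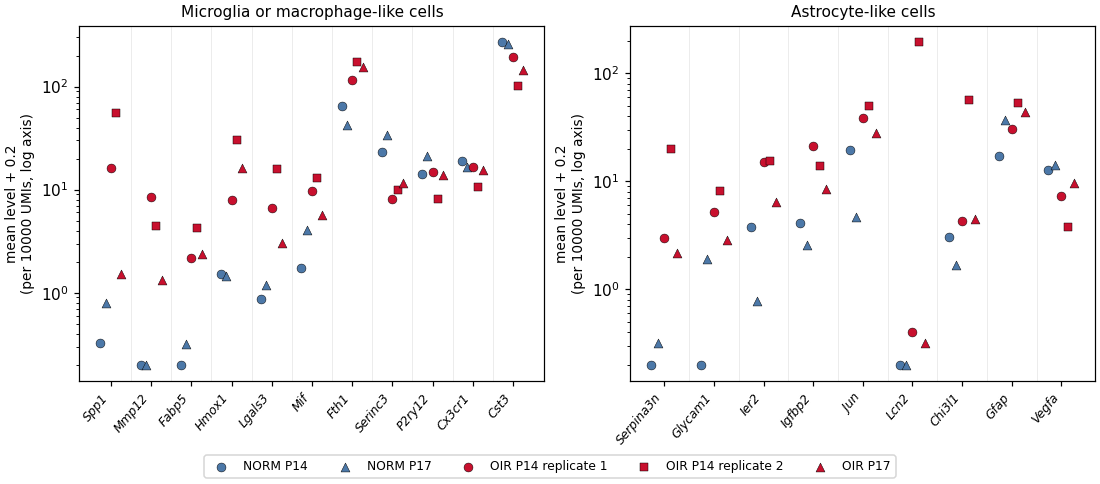
Mean level + 0.2 per 10000 UMIs (log axis) of named genes in microglia or macrophage-like cells (left) and astrocyte-like cells (right), 1 point per library. Spp1 is high in both OIR P14 libraries and low in OIR P17, and Lcn2 is high in OIR P14 replicate 2 alone.

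Astrocyte-like cells numbered 17 to 32 per library and were tested at a minimum of 15 cells, chosen after cell counts were seen. Of 6511 genes, 5 rose (0.0768%) and 0 fell with limma, and 573 had an unadjusted p below 0.05. Serpina3n, a protease inhibitor of reactive astrocytes, read 0 and 0.118 in NORM and 2.75, 19.9 and 1.97 in OIR, from 2 and 221 UMIs, a ratio of 42.9 (95% exact interval 11.7 to 357, counting error only), with an adjusted p of 0.000284 in limma. Igfbp2 read 3.95 and 2.39 against 21.1, 13.8 and 8.29 (1.91 ± 0.37) and the mucin-like Glycam1 0 and 1.69 against 5.0, 7.98 and 2.67 (3.13 ± 0.59). The immediate early genes Ier2 (3.58, 0.57, 14.8, 15.2 and 6.22) and Jun (19.4, 4.47, 38.8, 50.2 and 27.6) also rose, and NORM P17 was the lowest library for both. Calls numbered 2 without OIR P14 replicate 2, 9 without NORM P14, 12 without OIR P14 replicate 1, 34 without OIR P17 and 38 without NORM P17.

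Lipocalin 2 (Lcn2), an iron-trapping protein of severe gliosis, read 0, 0, 0.199, 196 and 0.12 in astrocyte-like cells. OIR P14 replicate 2 held nearly all of it, and the gene did not pass (limma, adjusted p = 0.318). An Lcn2 UMI was seen in 22 of 25 of that library's astrocyte-like cells and, as background, in 27 of its 825 rod bipolar-like cells (18 of 24 and 12 of 731 after thinning; median depths 3538 and 938 UMIs). Chi3l1 was also highest there (2.88, 1.48, 4.05, 57 and 4.29). All 12 tested gliosis genes were above 0, with a median of 1.69, and 1 rose (Serpina3n). RNA of other cells differed here as well. Of 15 tested bipolar genes, 13 were below 0, with a median of -1.12, and 6 were separate and lower, against 725 of 6511 genes. Their part in the result was not tested. Vegfa read 12.5 and 13.9 against 7.04, 3.59 and 9.44 in astrocyte-like cells, without passing (limma, adjusted p = 0.413), and 10 of 17 hypoxia genes were below 0. Whether astrocyte-like cells and Müller glia differ in this was not tested.

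Over all cells of a library, 0 of 7903 genes passed with limma, and 665 had an unadjusted p below 0.05. The genes with the smallest p, Gm15283, Bnip3, Loxl2, Pltp and Selenbp1, had adjusted p from 0.119 to 0.193 in limma. Bnip3 read 2.06 and 2.19 in NORM and 5.77, 5.9 and 6.87 in OIR, and the lipid transfer protein Pltp 0.918 and 1.18 against 0.216, 0.153 and 0.217. Both were separate, as were 11.7% of all genes upward and 14.2% downward. Of 22 hypoxia genes, 20 were above 0 and 15 were separate and higher, with a median of 0.54, against -0.02 over all genes. Without OIR P14 replicate 1, 77 genes were called (52 higher, 25 lower), among them Ndufa4l2, Hk2, Pfkp, Gfap and Adm. Also called were 6 genes of the rod phototransduction list, which summed to 19.8, 98, 46.6, 12.5 and 38.6, highest in NORM P17. Means over all cells also follow the mix of classes, and 10 genes were called with equal weight given to 8 classes (Müller glia, amacrine, cone, rod and cone bipolar, pericyte, microglia or macrophage, and ciliary body or iris-like cells).

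By age, the median difference of the hypoxia list lay above 0 at P14 and P17 in Müller glia and both bipolar classes. The same held in microglia or macrophage-like (1.07 and 0.659), pericyte-like (0.739 and 0.87), amacrine-like and horizontal-like cells. In astrocyte-like and endothelial-like cells it lay below 0 at both ages. The list had a median difference of 0.81 at P14 and 1.02 at P17 in rod bipolar-like cells, and of 0.63 and 0.69 in cone bipolar-like cells. Ages were compared in a model over 12 libraries, or those with enough cells of the class, whose spread comes from replicated groups alone. Those groups are all OIR, and each NORM group and OIR P17 of rod-depleted retina is 1 library, assumed to vary like them. In that model, 0 of 6697 genes in rod bipolar-like cells differed between ages with limma, and 29 had an unadjusted p below 0.05. In Müller glia the list median was 0.46 at P14 and 0.91 at P17. Ndufa4l2 differed by 2.90 ± 0.42 at P14 and 4.48 ± 0.49 at P17 and was called at both ages (limma, adjusted p = 0.0207 and 0.000166). Vegfa differed by 0.98 at P14 and 1.96 at P17 and was called at P17. The difference between the 2 ages did not pass for either gene.

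That model called 2 Müller genes at P14 (Ndufa4l2 and Nxph4), 16 at P17, and 2 whose effect differed between ages, Socs3 and Atf3. Those called at P17 included Adm, Igfbp5 and Hsd17b2 beside stress and immediate early genes (Atf3, Socs3, Egr2, Junb, Maff, Ppp1r15a and Ddit3). The immediate early and dissociation stress list had a median difference of 0.03 at P14 and 1.13 at P17 in Müller glia. Its summed level was 546 and 350 in NORM and 610, 561 and 560 in OIR, so NORM P17 was the low library. The list also lay higher at P17 than at P14 in astrocyte-like (1.70 and -0.21), pericyte-like (1.11 and -0.59) and amacrine-like cells (1.21 and -0.08). Each P17 value rests on 1 OIR and 1 NORM library.

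Over all cells that model called 3 genes at P14 (Cldn5 and Ly6c1 lower, Nxph4 higher), Ly6c1 again at P17, and 0 between ages, where 412 had an unadjusted p below 0.05. In cone bipolar-like cells it called Hk2 at P14. It also called genes in microglia or macrophage-like cells at P14, in horizontal-like cells at P17, and in ganglion-like cells at P17 and between ages. Most of these calls were in ganglion-like cells at P17. They rest on groups of 1 library, as the Müller calls at P17 do, and are not detailed here. In rod bipolar-like and amacrine-like cells 0 genes were called at either age with limma (96 and 1080 at an unadjusted p below 0.05 at P14, 173 and 762 at P17).

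**Figure D5:**
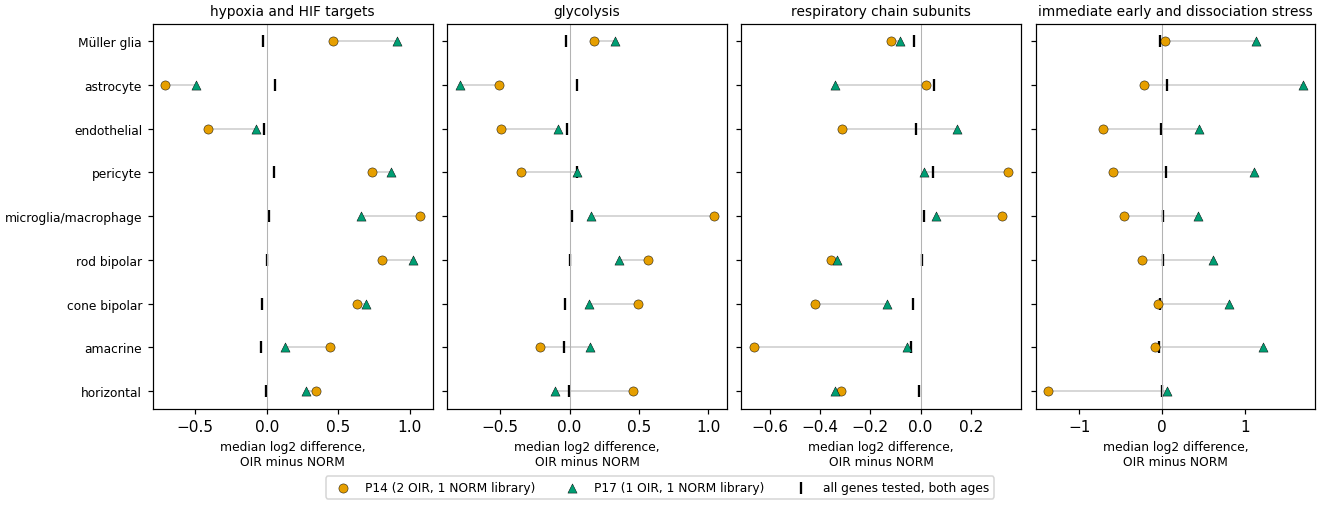
Median log2 difference (OIR minus NORM) of 4 gene lists in each class, at P14 (circles) and P17 (triangles), with a bar at the median of all genes tested. Hypoxia genes lie left of 0 at both ages in astrocyte-like and endothelial-like cells and right of 0 at both ages in every other class shown. The immediate early list lies farther right at P17 in each class shown.

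Some rises occurred in more than 1 class. Of the 13 Müller rises, 1 was among the 42 of rod bipolar-like cells (Vegfa) and 2 were among the 54 of pericyte-like cells (Anxa2 and Loxl2), which is 7.69% and 15.4% of the Müller list and 2.38% and 3.70% of the others. Endothelial and pericyte-like cells shared 4 rises (Top2a, S100a6, Apold1 and 2810417H13Rik), 21.1% of the endothelial and 7.41% of the pericyte list. Top2a and 2810417H13Rik were at 0 in both NORM libraries of pericyte-like cells, so their pericyte calls carry no weight and this overlap is overstated. All 3 rises of cone bipolar-like cells (Bnip3, Hk2 and Mt1) were among those of rod bipolar-like cells, 7.14% of the latter, as were the amacrine rise Mt2 (2.38%) and the horizontal rises D4Wsu53e and Pcsk1n (4.76%, and 66.7% of the horizontal list). Apln was shared by Müller glia and endothelial-like cells (7.69% and 5.26%) and Fabp5 by pericyte and microglia or macrophage-like cells (1.85% and 14.3%). The calls of bipolar Hk2, Müller Apln and Loxl2, endothelial Top2a and microglia or macrophage Fabp5 carry less weight, as stated above. The classes come from the same 5 libraries.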

How the data were processed

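The submitters' processing notes name bcl2fastq and STAR 2.4.0, with the mm10 build; their filters and annotation are not stated here. The authors deposited 1 table of natural log values, ln(1 + UMIs per 10000 UMIs of the cell), from which whole UMIs were recovered. A further 5799 columns in 7 sets matched no sample label and were not used. The mapping of cells to libraries follows the column names.

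Cells were clustered with leidenalg 0.10.2 (Python 3.11.15) and clusters named from markers. No doublet caller was run. Per library and class, the mean level over cells was tested with limma on log2(level + 0.2), with age and oxygen as terms, in libraries with at least 20 cells, for genes with a mean of at least 0.2 and above 0 in at least 3 libraries, with Benjamini-Hochberg adjustment. Ages were tested separately by group means over all 12 libraries, or over those with enough cells of the class. No count model was applied to the recovered UMIs; the deposited unit is a natural log, not a count. Depth was 2259556 to 3011614 UMIs per library. Intervals and floors cover counting error only.

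The members and lists were chosen with earlier results of these data known. Named genes are, per class, the 12 largest rises and 8 largest falls among separate called genes (the 5 smallest p where fewer than 3 passed), a fixed panel, and called list members. Pcsk1n, Xist, Pltp, Lgals1, Cxcl1, Vtn, Rgs2 and further genes named outside this rule were chosen after their values were seen. Some genes that the rule names are not reported here. Alternatives covered the pseudocount, filter, age term, centring, summed UMIs, the 12-library fit and each library left out; for endothelial-like cells, the last was added after the data were seen. The scripts were tested on simulated data.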

Additional observations from a re-analysis of the deposited data

Results flagged for a closer look

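In Müller glia-like cells the OIR effect on 2 genes differed between P14 and P17 in the limma model over 12 libraries. For Socs3, a cytokine signalling inhibitor, the P17 effect exceeded the P14 effect by 4.33 on the log2 scale (adjusted p = 0.00660, limma). Its levels were 9.64 in NORM P14, 0.401 in NORM P17, and 5.87, 12.6 and 10.6 in OIR. For Atf3, a stress-induced transcription factor, the difference was 4.06 (adjusted p = 0.00360, limma), with levels of 11.4 and 0.345 in NORM and 14.6, 12.6 and 10.5 in OIR. In both genes NORM P17 alone was low. The spread in that model comes from replicated groups, which are all OIR, and NORM P17 is 1 library assumed to vary like them. That library also had the fewest Müller cells in the stress-led cluster, 9.61%, and the part of this in the result was not tested.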

How the results depend on the processing

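No paired analysis was possible because OIR and NORM share only replicate number 1 in rod-depleted retina. Counts of called genes moved most with single libraries in most classes. In horizontal-like cells summed UMIs moved the count most. From the main fits of endothelial-like and ganglion-like cells no library could be left out. Leaving out 1 library gave 0 to 77 calls over all cells, 6 to 115 in Müller glia, 2 to 38 in astrocyte-like, 52 to 513 in pericyte-like, 4 to 18 in microglia or macrophage-like, 0 to 173 in rod bipolar-like, 0 to 10 in cone bipolar-like, 1 to 9 in amacrine-like and 1 to 5 in horizontal-like cells. Endothelial-like cells gave 2 to 21 in the fit of 5 libraries with at least 15 cells, with OIR P14 replicate 2 always kept. Without that library the fit is the main endothelial one, with 38 calls. Ganglion-like cells allowed no fit of 5 libraries. Over 12 libraries the counts were 29 over all cells, 8 in rod bipolar-like, 5 in cone bipolar-like and 0 in amacrine-like cells. Group means also gave 0 in astrocyte-like, pericyte-like and microglia or macrophage-like cells. There, libraries with too few cells were left out, and 1, 1 and 2 residual degrees of freedom remained. Without the age term they were 7 in Müller glia, 1 in astrocyte-like, 4 in endothelial-like, 16 in pericyte-like, 15 in microglia or macrophage-like, 25 in rod bipolar-like and 0 in amacrine-like cells. Without the filter they were 23 in astrocyte-like, 132 in pericyte-like, 25 in rod bipolar-like, 1 in ganglion-like, and 0 in cone bipolar-like, amacrine-like and horizontal-like cells. With summed UMIs they were 10 in astrocyte-like, 5 in endothelial-like, 201 in pericyte-like, 17 in microglia or macrophage-like, 73 in rod bipolar-like, 7 in horizontal-like and 1 in ganglion-like cells. A pseudocount of 1 gave 8 in Müller glia and 50 in pericyte-like cells. Endothelial-like cells gave 8 when centred on the median gene and 7 at a minimum of 15 cells. Over all cells, 10 were called with 8 classes weighted equally and 7 without ciliary body or iris, rod and cone-like cells. The model of oxygen by age on 5 libraries called 37 Müller and 4 amacrine genes. The cause was not tested. Of 111 called named genes, 109 kept their direction in the pair that shares a date-like code, and endothelial Apln (-0.57) and Acsl3 (0.34) reversed. Both libraries of that pair were in every main fit but the endothelial one. For separate genes of those fits the direction was thus set in advance, so this count carries no weight.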

Other observations

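The 5 oligodendrocyte markers summed to 25.9 UMIs per 10000 in amacrine-like cells of OIR P14 replicate 1 (71 cells) and to 0.211, 0.260, 0.301 and 0.499 in NORM P14, NORM P17, OIR P14 replicate 2 and OIR P17. Interferon and antigen presentation genes had a median difference of 0.54 in rod bipolar-like and 0.55 in cone bipolar-like cells (6 and 8 genes tested), against 0.00 and -0.03 over all genes, and 1 gene of that list, H2-Ab1, was called in rod bipolar-like cells.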
